A study of Mus musculus with 8 samples.

Results

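A set of 10 secreted matrix genes was followed in tumours of TRAMP-C2, a mouse prostate adenocarcinoma line, grown in male C57BL/6 hosts. They comprise the matricellular and adhesive genes Tnc, Fn1, Thbs1, Thbs2, Postn, Spp1 and Sparc and the small leucine-rich proteoglycan genes Bgn, Dcn and Lum. The members were taken from a given list by gene symbol. All 10 were found among the 24028 genes of the tables, and all 10 were among the 14575 genes tested. Each host received 1 M cells in the dorsolateral prostate, and tumours were harvested 30 to 45 days later. Of the tumours, 4 came from aged hosts (20 to 24 months, 19 injected) and 4 from young hosts (4 months, 20 injected), and both groups were syngeneic with the line and immune competent. Each tumour has its own mouse number and is named here by group and number. The comparison asks how transcripts of the matrix differ when one cell line grows in an aged or a young gland. All tumours derive from a single line, and how the sequenced tumours were picked is not given in the sources used here.

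Matricellular proteins are secreted into the matrix and change how cells attach, move and receive growth factors, more than they bear load. Tenascin C and the thrombospondins loosen or redirect adhesion, while fibronectin, periostin and osteopontin (Spp1) bind integrins. Small leucine-rich proteoglycans are short matrix proteins that sit on collagen fibrils, set their spacing, and hold growth factors such as TGF-beta. In tumours these genes are typical of activated fibroblasts, and osteopontin also of macrophages and cancer cells.

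The tables held bulk mRNA, so transcripts of injected and of host cells were measured together, and fewer cells of a type cannot be told apart from less RNA per cell. Depth was 27.1 to 35.7 M fragments per tumour. Aged 50 and young 36 carried seminal vesicle transcripts (mean log2 CPM of 11.22 and 13.42, against at most 1.75 in the other tumours), where CPM is fragments per M counted. Prostate secretory transcripts were uneven too, with a mean log2 CPM of 6.76 in aged 50, 6.47 in young 36 and 4.94 in young 37. The other tumours had at most 3.48. In young 37 the secretory genes Sbp and Spink1 stood at 7523 and 3580 CPM. Epithelial markers, which define the cell type of the line, were present at uneven levels, and those of host gland epithelium cannot be told apart. The mean of the 10 listed ran from 1.35 log2 CPM in young 43 to 5.70 in aged 50. Epcam, an epithelial adhesion gene, ranged from 0.7 CPM in young 43 to 69.4 CPM in aged 50, and Cdh1, the E-cadherin gene, from 2.83 to 85.3 CPM in the same tumours. The keratin gene Krt19 differed, with its highest value in aged 46 (169 CPM, against 131 in aged 50).

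Promoter windows were in the RefSeq-derived table (GRCm38.p6) for 6 of the 10 members. Windows of 4 members are shown, each the 250 bases before an annotated start, with no annotated exon inside. The Postn window precedes a second listed start, within the gene. Tnc and Bgn had the smallest p-values of the set, and Postn and Spp1 had the lowest Pearson r of any pair. Capitals mark matches to TATAAA and GGGCGG on either strand. The window before the first listed Postn start, not shown, held none. The Tnc window is chr4:64047016-64047265, minus strand, the Bgn window chrX:73483351-73483600, plus strand, the Postn window chr3:54360857-54361106, plus strand, and the Spp1 window chr5:104434861-104435110, plus strand.
Tnc: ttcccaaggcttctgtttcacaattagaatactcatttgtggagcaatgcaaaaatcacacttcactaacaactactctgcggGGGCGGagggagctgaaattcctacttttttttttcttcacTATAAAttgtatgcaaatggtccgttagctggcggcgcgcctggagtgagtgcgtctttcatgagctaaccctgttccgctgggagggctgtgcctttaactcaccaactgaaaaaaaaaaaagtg
Bgn: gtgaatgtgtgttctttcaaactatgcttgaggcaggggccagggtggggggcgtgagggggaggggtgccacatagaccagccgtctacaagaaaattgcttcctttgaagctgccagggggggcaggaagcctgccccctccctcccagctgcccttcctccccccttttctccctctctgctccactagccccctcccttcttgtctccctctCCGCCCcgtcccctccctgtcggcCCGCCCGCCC
Postn: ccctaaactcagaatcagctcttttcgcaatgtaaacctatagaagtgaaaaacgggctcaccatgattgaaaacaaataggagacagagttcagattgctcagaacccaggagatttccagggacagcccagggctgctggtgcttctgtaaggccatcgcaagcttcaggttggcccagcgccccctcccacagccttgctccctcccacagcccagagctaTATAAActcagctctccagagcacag
Spp1: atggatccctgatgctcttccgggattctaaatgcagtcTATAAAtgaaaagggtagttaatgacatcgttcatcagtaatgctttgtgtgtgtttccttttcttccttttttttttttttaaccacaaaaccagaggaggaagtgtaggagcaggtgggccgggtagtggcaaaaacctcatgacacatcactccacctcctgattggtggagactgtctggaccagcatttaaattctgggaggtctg

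In the windows shown, a TATAAA match lay 26 to 21 bases before the second listed Postn start. Others lay 126 to 121 bases before the Tnc start and 211 to 206 bases before the Spp1 start. The Bgn window had none, but had 3 GGGCGG matches on the minus strand, 34 to 29, 10 to 5 and 6 to 1 bases before the start (the last 2 overlap), and was the richest in G and C (64.4%, against 52% for Postn, 44.8% for Tnc and 43.6% for Spp1). Of all 32851 promoter windows of this length, 12.4% held TATAAA, 32.7% held GGGCGG and 6.75% held TGANTCA, which none of the 9 member windows held. These matches are letters in a window, not binding sites.

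Per length of transcript (FPKM, CPM divided by transcript length in kb), Sparc was the most abundant member with a median of 1113 FPKM. It encodes a collagen-binding glycoprotein. Bgn followed with a median of 505 FPKM, Postn with 442, Spp1 with 373 and Fn1 with 218. Dcn had a median of 135 FPKM, Lum 71.9, Thbs1 69.9, Thbs2 40.1 and Tnc 17.2. Sparc (at least 687 FPKM) did not overlap Bgn (at most 619 FPKM), while each other pair of neighbours in this order overlapped. Dcn nonetheless exceeded Lum, and Thbs1 exceeded Thbs2, in 8 of 8 tumours. Together the members took 0.876% ± 0.162 of the fragments of aged tumours and 1.14% ± 0.133 of those of young tumours (SD, n = 4), with aged 50 (1.02%) just above young 36 (1.01%).

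**Figure D1:**
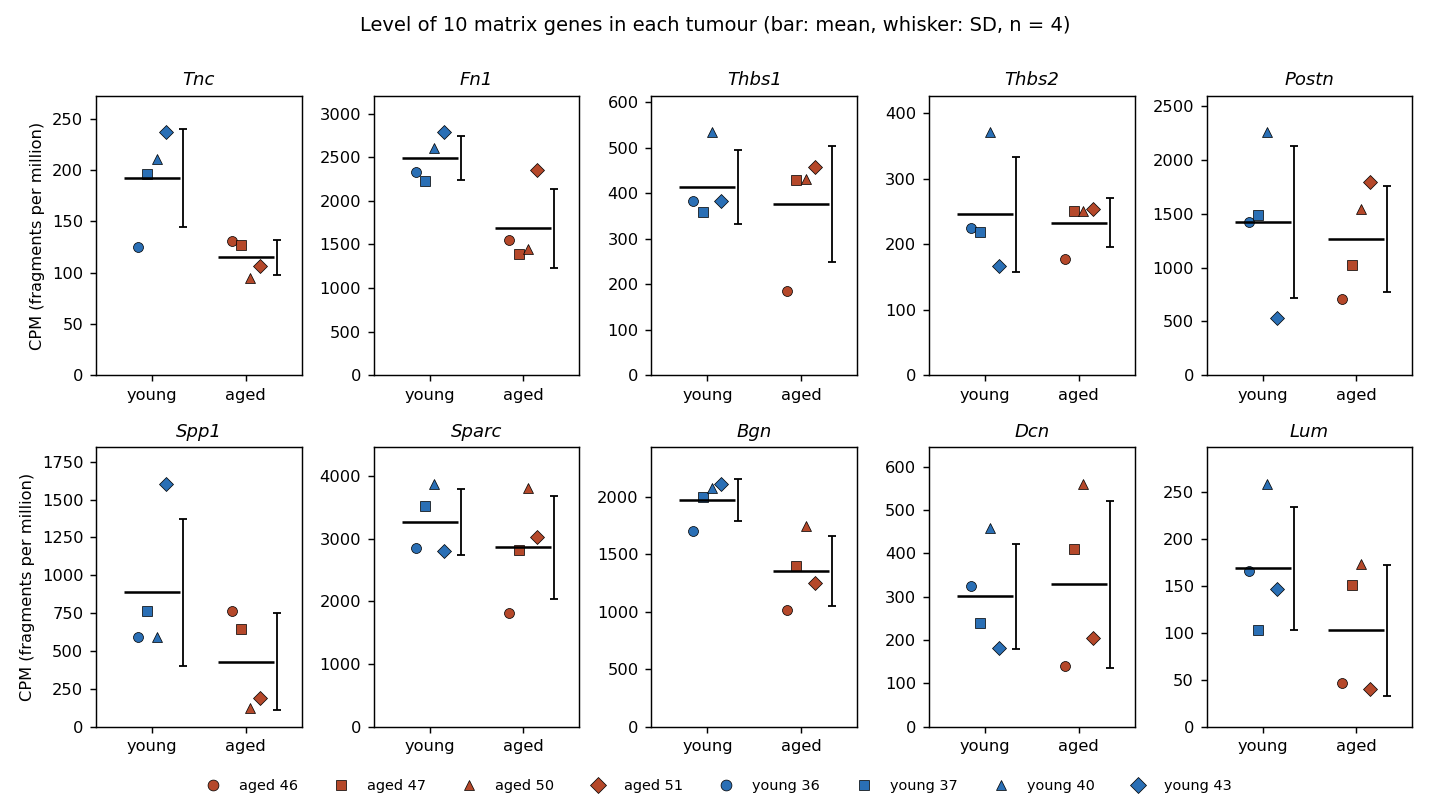
CPM (linear axis from 0) of each of the 10 genes by host group, 1 symbol per tumour, with the group mean as a bar and the SD as a whisker (n = 4). Bgn, Fn1 and Tnc sat lower in most aged tumours, while Dcn, Sparc and Thbs2 overlapped widely.

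Between host ages, 9 of 10 members had lower values in aged tumours, and 0 of 10 passed edgeR's quasi-likelihood test (smallest Benjamini-Hochberg adjusted p = 0.923). Over all genes tested, 0 of 14575 passed (0%), so no member is called changed. At an unadjusted p under 0.05 there were 3 members, Tnc, Bgn and Fn1, all lower. Over all genes tested, 4.99% had such a p, 2.66% with a lower and 2.34% with a higher value in aged tumours (6.02% by DESeq2 and 11.9% by limma voom in either direction). The members' median log2 fold change, aged minus young, was -0.36, and that of all genes was 0.03, with 44.7% of genes below 0. DESeq2 and limma voom with sample weights also called 0 of 10, against 0.297% and 0.0617% of all genes with an adjusted p. The count of lower members depended on single tumours. It was 6 without aged 46 and 7 without young 40, and 10 without aged 50, without young 43, or without aged 50 and young 36 together. With the mean of 12 fibroblast markers as a covariate it was 6.

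**Figure D2:**
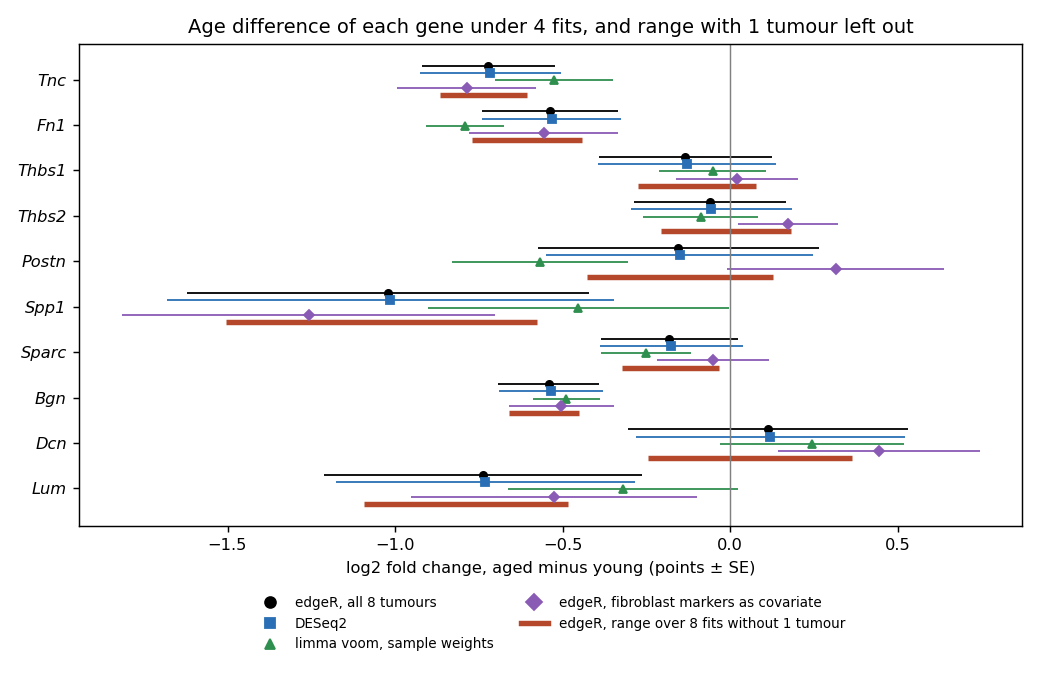
Log2 fold change, aged minus young, of each gene with its SE under edgeR, DESeq2, limma voom and edgeR with fibroblast markers as a covariate, and as a thick bar the range over 8 edgeR fits that each leave out 1 tumour. Tnc, Fn1, Bgn, Lum, Spp1 and Sparc stayed below 0 in every fit shown, while Dcn, Postn, Thbs1 and Thbs2 crossed it.

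Tnc, which encodes the hexameric anti-adhesive glycoprotein tenascin C (Entrez 21923, chromosome 4, 63959785 to 64047015, GRCm38), stood at 131 CPM in aged 46, 127 in aged 47, 94.8 in aged 50 and 106 in aged 51. In young tumours it stood at 125 CPM in young 36, 197 in young 37, 211 in young 40 and 237 in young 43. Young 36 thus lay among the aged tumours, and the other young tumours lay above all of them. Aged tumours averaged 115 ± 17.3 and young ones 192 ± 48.0 CPM (SD, n = 4 each). In edgeR's fit the log2 aged minus young change was -0.72 ± 0.20 (SE; edgeR unadjusted p = 0.0054, adjusted p = 0.923). Without young 36 it was -0.86, and over the fits that leave out 1 tumour it ran from -0.86 to -0.61. By DESeq2 the adjusted p was 0.124 and by limma voom 0.327. Of the other tenascins, Tnxb had 0.42 ± 0.56 and Tnn -0.27 ± 0.64 on the log2 scale, and Tnr was too low to test. Tnc shares exon sequence with 8030451A03Rik, an oppositely oriented noncoding transcript. Its value, and that of each other member with such an overlap, is uncertain to that extent, because whether counting used strand is not given in the sources used here.

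Fn1 encodes fibronectin, the integrin-binding scaffold on which other matrix proteins assemble (Entrez 14268, chromosome 1, 71585473 to 71653280). It stood at 1547, 1390.2, 1449 and 2359 CPM in aged 46, 47, 50 and 51, and at 2336, 2228, 2603 and 2787 CPM in young 36, 37, 40 and 43. A single aged tumour, aged 51, lay within the young range, and the other aged tumours lay below every young one. The log2 fold change was -0.54 ± 0.20 (edgeR unadjusted p = 0.027, adjusted p = 0.923), and with 1 tumour left out it ran from -0.77 (without aged 51) to -0.44 (without aged 47). Its unadjusted p by edgeR was above 0.05 without aged 46, 47 or 50 and without young 40 or 43 (0.0514 to 0.0724). By limma voom, which weights tumours, it was -0.79 ± 0.12 with an adjusted p of 0.0675, and by DESeq2 the adjusted p was 0.5. Exons of the antisense gene Apol7d overlap those of Fn1.

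Thrombospondins 1 and 2 are trimeric glycoproteins that bind CD47 and CD36, and thrombospondin 1 also activates latent TGF-beta. Thbs1 (Entrez 21825, chromosome 2, 118111876 to 118127133) stood at 185 CPM in aged 46 but at 429, 431 and 457 CPM in aged 47, 50 and 51, against 382, 358, 534 and 382 CPM in young 36, 37, 40 and 43. Aged 46 was lowest and young 40 highest, and the other aged tumours lay above the other young ones. Its log2 fold change was -0.13 ± 0.26, and 0.08 without aged 46. Thbs2 (Entrez 21826, chromosome 17, 14665500 to 14694262) ranged from 178 to 254 CPM for aged and from 168 to 371 CPM for young hosts, with young 40 highest and young 43 lowest of all 8. In aged tumours it differed by -0.06 ± 0.23 on the log2 scale. Thbs3 had -0.18 ± 0.20, Thbs4 -1.09 ± 0.75 and Comp 0.16 ± 0.76. Thbs4 was at most 6.69 CPM and Comp at most 1.16 CPM in every tumour. Thbs1 shares exon sequence with the antisense noncoding RNA Gm29233.

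Postn encodes periostin, a fasciclin-domain protein that binds integrins and helps collagen cross-linking (Entrez 50706, chromosome 3, 54359267 to 54391041). It stood at 704, 1029, 1546 and 1793 CPM in aged 46, 47, 50 and 51 and at 1423.5, 1488, 2259 and 532 CPM in young 36, 37, 40 and 43. The highest and the lowest values were both young. The log2 fold change was -0.15 ± 0.42, and 0.13 without young 40. Tgfbi, the related TGF-beta-induced gene, had -0.40 ± 0.29.

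Spp1, the osteopontin gene (Entrez 20750, chromosome 5, 104435111 to 104441053), varied most, with a 13.2-fold range over the tumours. It stood at 763 and 644 CPM in aged 46 and 47 but at 122 and 191 CPM in aged 50 and 51, and at 591, 764 and 593 CPM in young 36, 37 and 40 and 1604 CPM in young 43. The aged tumours were thus far apart, and the 2 higher ones lay within the young range. The log2 fold change was -1.02 ± 0.60 (edgeR unadjusted p = 0.12, adjusted p = 0.923), -0.58 without young 43 and -1.504 without aged 46. The SD of its log2 CPM was above that of 98.4% of the 1479 genes averaging 7 log2 CPM or more among aged tumours, and above 98.2% of them among young tumours. The other 4 genes of its phosphoprotein family (Ibsp, Dmp1, Mepe and Dspp) were too low to test, and Mepe had no fragment in any tumour. A short unverified transcript on the same strand shares exon sequence with Spp1. Osteopontin is also made by osteoclasts and macrophages. The osteoclast-type markers had lower values for 6 of 6 tested genes, 5 at an unadjusted p under 0.05 and 0 past the adjusted threshold by edgeR. DESeq2 called 2 of them, Mmp9 and the acid phosphatase gene Acp5 (log2 fold change -1.60 ± 0.21, edgeR adjusted p = 0.427, DESeq2 adjusted p = 6.32e-09). The summed level of the list ran from 50.4 to 70.2 CPM for aged and from 92.5 to 248 CPM for young hosts, with Oscar and Calcr too low to test. Of the macrophage markers 9 of 10 were lower, with summed levels of 3029 to 6050.3 CPM for aged and 3892 to 5998 CPM for young hosts. Their part in the Spp1 values was not tested.

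Sparc (Entrez 20692, chromosome 11, 55394159 to 55420080) was the first of the members in CPM in all 8 tumours and ranked 18 of the 14575 tested genes by median CPM. It stood at 1814, 2812, 3812 and 3024 CPM in aged 46, 47, 50 and 51 and at 2855, 3519.6, 3877 and 2799.5 CPM in young 36, 37, 40 and 43. All tumours but aged 46 shared the same range. Its log2 fold change was -0.18 ± 0.20, or -0.03 without aged 46, -0.11 without young 40, -0.32 without aged 50 and -0.05 with fibroblast markers as a covariate. Each of the other 6 tested genes of its family had a value above 0, and 0 of the 6 had an unadjusted p under 0.05. Smoc1 (1.33 ± 0.69) and Spock1 (1.96 ± 1.11) were at most 5.47 CPM in every tumour. Spock1 reached 5.47 CPM in aged 50 and at most 0.85 CPM in the others. The more abundant relatives were close to 0, with Fstl1 at 0.008 ± 0.22 and Sparcl1 at 0.18 ± 0.24.

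Bgn encodes biglycan, a proteoglycan with 2 glycosaminoglycan chains that binds collagen and signals through Toll-like receptors when released (Entrez 12111, chromosome X, 73483601 to 73495936). It stood at 1019.8, 1396, 1745 and 1249 CPM in aged 46, 47, 50 and 51 and at 1705, 1999, 2078 and 2115 CPM in young 36, 37, 40 and 43. In CPM aged 50 lay just above young 36. After TMM scaling, which corrects for differences in RNA composition, the groups did not overlap, with aged 50 at 10.71 and young 36 at 10.79 log2 CPM. On that scale 1 of 10 members did not overlap, and 2.31% of all tested genes were lower in aged tumours without overlap (3.66% in either direction). Aged tumours averaged 1353 ± 304 and young ones 1974 ± 186 CPM (SD, n = 4 each). The log2 fold change was -0.54 ± 0.15 (edgeR unadjusted p = 0.0059, adjusted p = 0.923). The fits that leave out 1 tumour gave -0.66 to -0.45. DESeq2 gave an adjusted p of 0.11 and limma voom 0.151.

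Dcn encodes decorin, with 1 glycosaminoglycan chain, which decorates collagen fibrils and binds TGF-beta and the EGF receptor (Entrez 13179, chromosome 10, 97479500 to 97518163). It stood at 139.7, 409.6, 560.3 and 205 CPM in aged 46, 47, 50 and 51 and at 323, 238, 459 and 181 CPM in young 36, 37, 40 and 43. The aged tumours held the 2 extremes of the series, and the log2 fold change was 0.11 ± 0.42, or -0.25 without aged 50. Lum encodes lumican, a keratan sulphate proteoglycan of collagen fibrils (Entrez 17022, chromosome 10, 97565501 to 97572703). It stood at 46.1, 151, 174 and 39.9 CPM in the same aged tumours and at 166, 103, 259 and 147 CPM in the young ones. Aged 46 and aged 51 lay below every young tumour, and the other 2 aged tumours within the young range. The log2 fold change was -0.74 ± 0.47 (edgeR unadjusted p = 0.15, adjusted p = 0.923). It was -0.48 without aged 51 or without young 40, -1.09 without aged 50, and -0.32 by limma voom.

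Ratios within a tumour do not depend on scaling between tumours, and 7 pairs were compared. Dcn and Lum lie 47.3 kb apart on chromosome 10, followed by Kera and Epyc, and both coat collagen. Their log2 ratio was 1.596, 1.44, 1.69 and 2.36 in aged 46, 47, 50 and 51 and 0.96, 1.21, 0.83 and 0.30 in young 36, 37, 40 and 43. Every aged tumour thus had more Dcn per Lum than every young one. The means were 1.77 ± 0.41 and 0.82 ± 0.38 (SD, n = 4 each), a difference of 0.95 (exact two-sided permutation p = 0.0286, the smallest that 70 assignments can give), which did not pass after adjustment over the 7 pairs (adjusted p = 0.2). With 1 tumour left out the difference was 0.75 to 1.08, and without aged 50 and young 36 it was 1.02. Of the neighbours, Kera, the keratocan gene, was too low to test, and Epyc, the epiphycan gene, had a log2 fold change of -1.65 ± 0.79. Epyc was low, at 0.43 to 1.74 CPM in aged and 0.64 to 7.52 CPM in young tumours, with the 7.52 in young 40.

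The other 6 ratios gave exact permutation p-values of 0.257 or more. Bgn to Dcn, both small leucine-rich proteoglycan genes, had a mean log2 ratio of 2.22 ± 0.61 for aged and 2.80 ± 0.63 for young hosts (SD, n = 4; exact permutation p = 0.257, adjusted p = 0.767). Thbs1 to Thbs2 had 0.62 ± 0.37 and 0.80 ± 0.28 (exact permutation p = 0.571, adjusted p = 0.767). Spp1 to Fn1 had -2.33 ± 1.46 and -1.61 ± 0.60 (exact permutation p = 0.371, adjusted p = 0.767), with aged 50 at -3.57 and aged 51 at -3.62 below all other tumours.

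**Figure D3:**
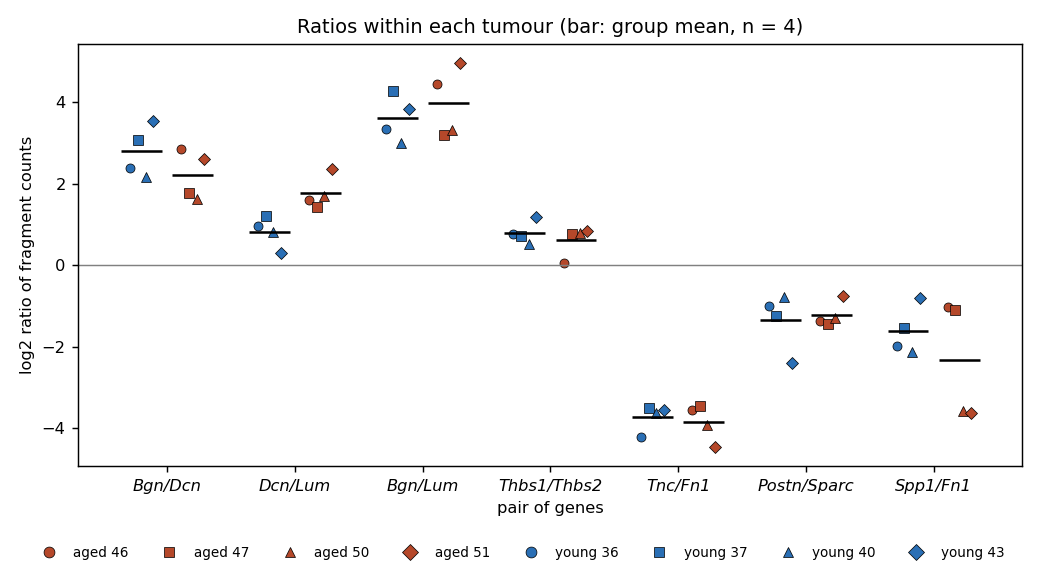
Log2 ratio of the fragment counts of 7 pairs of genes in each tumour, young and aged side by side, with the group mean as a bar (n = 4). For Dcn/Lum the aged tumours (1.44 to 2.36) lie above the young ones (0.30 to 1.21), and in the other pairs the groups overlap.

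Relative to fibrillar collagen (the sum of Col1a1, Col1a2 and Col3a1), 0 of 10 members passed (exact permutation, smallest adjusted p = 0.571 over 10 members). Bgn per collagen had a mean log2 ratio of -3.25 ± 0.34 for aged and -3.19 ± 0.28 for young hosts (SD, n = 4; exact permutation p = 0.8286), and Fn1 per collagen -2.94 ± 0.55 and -2.86 ± 0.37 (exact permutation p = 0.8). Sparc per collagen was -2.19 ± 0.16 for aged and -2.48 ± 0.20 for young hosts (exact permutation p = 0.0571). The summed collagen itself ran from 7407 CPM (aged 46) to 16877 CPM (aged 50) in aged and from 12995 CPM (young 36) to 23792 CPM (young 40) in young tumours. Of the 8 tested fibrillar collagens, 7 were lower for aged hosts. DESeq2 called 1 of them (Col5a3, adjusted p = 0.0107) and edgeR 0, and their part in the values of Bgn and Fn1 was not tested.

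Single tumours stood out across members. Aged 46 had the lowest value of 4 members (Bgn, Dcn, Sparc and Thbs1, TMM-scaled) and the highest of 0, and young 40 the highest of 5 (Lum, Postn, Sparc, Thbs1 and Thbs2). Young 43 had the highest Tnc, Bgn, Fn1 and Spp1 and the lowest Postn and Thbs2. The mean of the fibroblast markers was also lowest in aged 46 (5.98 log2 CPM) and highest in young 40 (6.91). It ranged from 5.98 to 6.67 in aged and from 6.24 to 6.91 in young tumours. The 6.24 was that of young 43, which had the highest Tnc, Bgn, Fn1 and Spp1 and the lowest Postn and Thbs2. It lay below aged 47, 50 and 51 (6.67, 6.48 and 6.51). Of the 12 marker genes, 9 had lower and 3 had higher values in aged tumours. DESeq2 called 2 of the 12, both lower, and edgeR called 0. The 2 were the collagen VI gene Col6a3 (DESeq2 adjusted p = 0.00046) and the PDGF receptor gene Pdgfrb (DESeq2 adjusted p = 0.0239). The marker Dpep1 went the other way, with 19.5 ± 5.92 CPM for aged and 8.09 ± 3.42 CPM for young hosts (SD, n = 4). Its log2 fold change was 1.28 ± 0.35 (edgeR unadjusted p = 0.0051, adjusted p = 0.923, DESeq2 adjusted p = 0.0921). With the mean of the 12 markers as a covariate Tnc had -0.79 ± 0.21, Bgn -0.50 ± 0.16 and Fn1 -0.56 ± 0.22. Dcn then had 0.44 ± 0.30 and Postn 0.31 ± 0.32, and 0 of 10 passed edgeR's test. The part of fibroblast number in the members' values was not tested, because the marker mean cannot tell fewer fibroblasts from less RNA per cell.

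**Figure D4:**
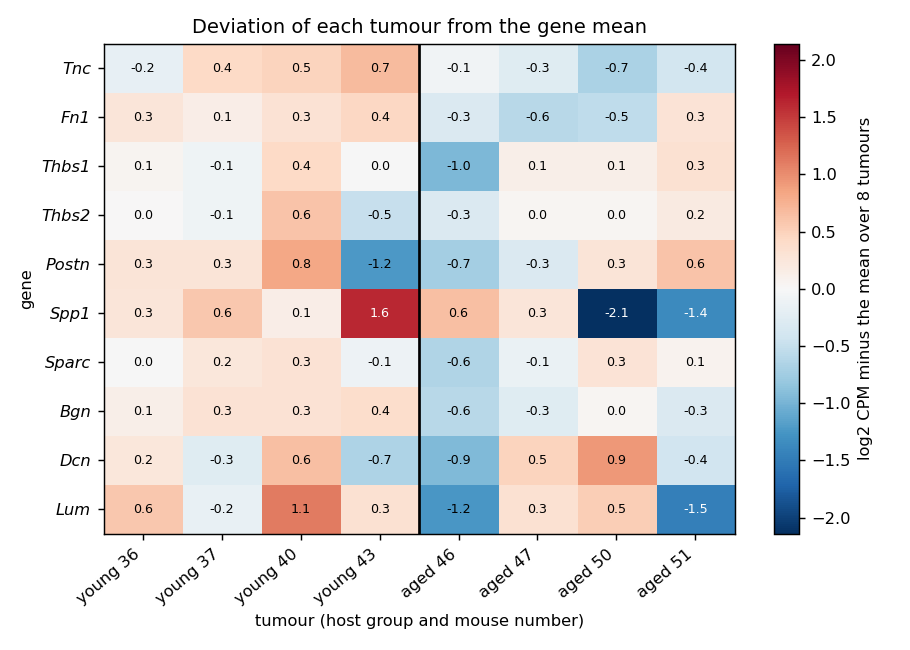
Log2 CPM of each gene in each tumour minus that gene's mean over the 8 tumours (red above, blue below), young tumours left of the line and aged tumours right. Aged 46 is below the mean for 9 of 10 genes, and Spp1 spans the widest range, from young 43 to aged 50.

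Across the 8 tumours the members did not move as 1 block. Of 45 pairs, 35 had a positive Pearson r of log2 CPM (median 0.31), and 0 passed after adjustment over the 45. Aged and young tumours were pooled for r, rho and their p-values. A difference between host ages that both genes of a pair share thus enters them. Postn and Thbs2 had the highest r (r = 0.88, exact permutation p = 0.0027, adjusted p = 0.119; Spearman rho = 0.79, exact permutation p = 0.028), with r = 0.69 without aged 46 and young 43. By rank, Thbs1 and Thbs2 were closer (rho = 0.90, exact permutation p = 0.0046; r = 0.67, exact permutation p = 0.096, adjusted p = 0.318), with r = 0.68 without aged 46 and young 40. Tnc and Spp1 had r = 0.82 (exact permutation p = 0.0094, adjusted p = 0.212; rho = 0.71, exact permutation p = 0.058), and 0.81 without young 40 and young 43. Sparc and Thbs1 had r = 0.83 (exact permutation p = 0.027, adjusted p = 0.288; rho = 0.64, exact permutation p = 0.096), but -0.037 without aged 46 and young 40, so this relation rests on those tumours. Postn and Spp1 had the lowest r (r = -0.62, exact permutation p = 0.096, adjusted p = 0.318; rho = -0.71, exact permutation p = 0.058), with r = -0.20 without aged 46 and young 43. By rank, Spp1 and Thbs1 were more opposed (rho = -0.81, exact permutation p = 0.022; r = -0.36, exact permutation p = 0.368, adjusted p = 0.607), with r = -0.25 without aged 50 and aged 51.

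**Figure D5:**
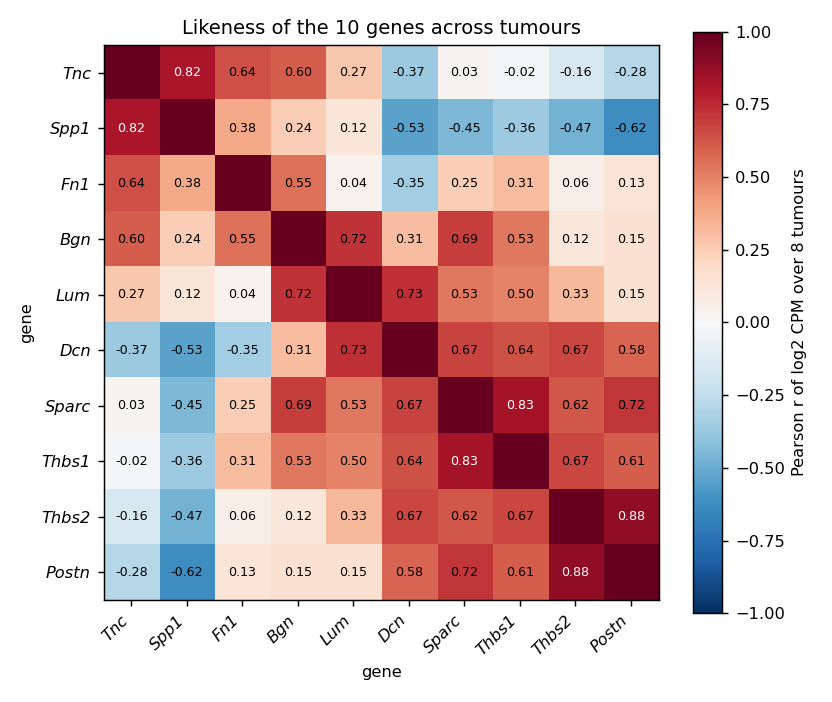
Pearson r of log2 CPM over the 8 tumours for each pair of the 10 genes (red positive, blue negative). Tnc and Spp1 form one corner (0.82) and Postn, Thbs2, Thbs1 and Sparc another (0.61 to 0.88), and Spp1 is negative with Dcn (-0.53) and Postn (-0.62).

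The tested genes most like each member over the 8 tumours were taken by Pearson r, as a description with no test. They were picked for the highest r, so a high r was fixed by the pick. For Tnc these were Tmem101, the gelatinase gene Mmp9 and the kinetochore gene Nuf2 (r = 0.96 each). For Bgn they included Gpr153 and Bend4 (0.98 each), for Fn1 Col18a1, Canx and Ets2 (0.93 to 0.96), and for Postn Itgbl1, Chst2 and Tm2d1 (0.94 to 0.95). For Spp1 they were Eme1, Spire2 and Ankrd34a (0.95 to 0.97), and for Sparc Epha3, Slc30a1 and Irf2 (0.96 to 0.98). Those of Thbs1 were Pigs, Pde8a and Efr3b (0.97 each), though by rank Pigs was less close (rho = 0.62). Those of Thbs2 were Tshz3, Hmgn3 and Cdh11 (0.93 to 0.94), and those of Lum Dnase1l3, B3gnt9 and Ppfia4 (0.98 to 0.99). For Dcn they were the T cell genes Cd3e and Cd2 and the cadherin-type gene Celsr1 (0.99 each). The mean of the 8 tested T cell markers was 0.97, 2.86, 3.55 and 1.23 log2 CPM in aged 46, 47, 50 and 51 and 2.45, 1.64, 2.85 and 1.16 in young 36, 37, 40 and 43, which is nearly the order of Dcn. Their summed level was 16.8 to 103 CPM for aged and 20.9 to 68.9 CPM for young hosts, and 7 of 8 had higher values in aged tumours. Cd3e and Cd2 are in this list and were picked by their r with Dcn, so part of the likeness was fixed by that pick. The mean of the smooth muscle and mural markers was also highest in aged 50 (6.50 log2 CPM), young 40 (6.36) and aged 47 (5.73). It was lowest in aged 46 (3.62) and aged 51 (4.31), with young 43 at 5.69. The part of other cells in the Dcn values was not tested.

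Of the wider families, 11 other small leucine-rich proteoglycans were tested, with 5 higher and 6 lower in aged tumours, and 0 past the adjusted threshold by edgeR (1 at an unadjusted p under 0.05). That gene was Omd, the osteomodulin gene, with 0.69 ± 0.30. The 5 tested CCN proteins, secreted matricellular regulators, held 3 higher and 2 lower. The strongest were Wisp1, with 83.0 ± 22.7 CPM for aged and 127 ± 22.7 CPM for young hosts (SD, n = 4) (log2 fold change -0.61 ± 0.18), and Ctgf, with 129.6 ± 78.9 and 55.9 ± 15.2 CPM (1.24 ± 0.40), and neither passed by edgeR (adjusted p = 0.923 each). Of 7 fibulins 3 were higher and 4 lower, with Fbln2 at -0.35 ± 0.16, and the hyaluronan-binding proteoglycan gene Vcan had -0.32 ± 0.25. Of 18 tested genes that build glycosaminoglycan chains 12 were lower and 6 higher, 0 with an unadjusted p under 0.05 by edgeR, with the xylosyltransferase gene Xylt2 at -0.39 ± 0.17.

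Receptors of the members were split, with 10 higher and 12 lower of 22 and a median log2 fold change of -0.03. Itgb5, the beta subunit of a vitronectin and osteopontin receptor, averaged 199.7 ± 49.3 CPM for aged and 287 ± 25.5 CPM for young hosts (-0.52 ± 0.16, edgeR adjusted p = 0.923). Cd36, a thrombospondin receptor and fatty acid transporter, had 12.4, 53.3, 37.8 and 181 CPM in aged 46, 47, 50 and 51 and 5.65 to 21.9 CPM in young tumours (2.13 ± 0.76, adjusted p = 0.923). Aged 51 was also highest in adipocyte markers (mean 3.96 log2 CPM, against -0.71 to 3.40 in the others) and in skeletal muscle markers (3.92, against -0.996 to 1.45), and their part in the Cd36 values was not tested. Egfr, a receptor that decorin binds, had -0.46 ± 0.20. A list of proteases that can cut these proteins, which also holds the thrombin cofactor gene Thbd, had 15 tested genes. Of these 11 were lower, 5 at an unadjusted p under 0.05 (Thbd among them, -0.62 ± 0.22) and 0 past the adjusted threshold by edgeR. Among them were Mmp9 (-1.87 ± 0.39), which DESeq2 called (adjusted p = 0.0012), the aggrecanase gene Adamts4 (-0.65 ± 0.17) and the collagenase gene Mmp13 (-1.91 ± 0.67). Of the remaining cell lists, smooth muscle and endothelial markers held 5 higher and 5 lower each. At an unadjusted p under 0.05 by edgeR there were 3 lower and 0 higher smooth muscle markers, and 1 higher and 0 lower endothelial ones. Epithelial markers held 9 higher and 1 lower (0 at such a p), and neutrophil markers 5 higher and 1 lower (3 higher at such a p). Prostate secretory genes held 6 higher and 2 lower. The 2 lower, Spink1 and Sbp, were both highest in young 37 and both at such a p. Seminal vesicle genes held 1 higher and 2 lower. Adipocyte (7 of 7) and skeletal muscle markers (6 of 6) had higher values only, 1 skeletal muscle marker at such a p. In these lists 0 genes passed the adjusted threshold by edgeR. Cartilage and bone markers had 2 tested genes (Runx2 and Sox9) and 6 too low to test, among them Col2a1 and Bglap.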

How the data were processed

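RNA of 8 tumours was sequenced as 50 bp paired ends from 1 ug of RNA each. Per the submitters' processing notes, Picard 2.7.1, TopHat2 2.0.12 and bcl2fastq were used, with the build GRCm38. The sources used here do not give the program that counted fragments, or whether it used strand. Per the file headers, the authors deposited fragment counts per Entrez gene, FPM values, which are CPM, and FPKM values, which equal that CPM per kb of the listed transcript length. Of 24028 symbols 32 were dates or missing, of which 27 were restored by Entrez number. Counts were filtered with filterByExpr (minimum count 10, total 15), TMM-scaled and tested with edgeR 4.0.16 in R 4.3.3 (robust quasi-likelihood, host age as the only term). The SE by edgeR is the absolute log2 fold change over the square root of F. Adjusted p-values are Benjamini-Hochberg over 14575 genes, threshold 0.05. DESeq2 1.42.0 and limma 3.58.1 (voom) were alternatives. Log2 CPM has a prior count of 2. The floor that 3 fragments set is 0.084 to 0.111 CPM per tumour (counting error only). The fit was tested on simulated data. The p-values for host age set a group difference against the spread between these tumours, and those for correlations concern likeness over all 8. The members and the 26 other gene lists were chosen with earlier results of these data known. Named genes are the members, up to 3 genes with the smallest p of a list, and the 3 genes most like each member among those averaging 0 log2 CPM or more. For Bgn, 1 of these is not reported here. Epcam, Cdh1, Comp, Fstl1, Sparcl1, the summed collagens and genes too low to test were named outside that rule, after their values were seen. Promoters are from RefSeq (GRCm38.p6), and overlaps from GENCODE vM21 on the same build.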

Additional observations from a re-analysis of the deposited data

Results flagged for a closer look

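Thbs1 in aged 46 stood at 7.61 log2 CPM, against 8.69 to 8.90 in the other 3 aged tumours. Its gap to the nearest tumour was 0.837 of the range of the group, above Dixon's 95% critical value for 4 samples. Each member was checked in both groups, 20 groups in all, and chance flags about 1 in 20 such groups.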

How the results depend on the processing

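Of the 10 members, 0 passed the adjusted threshold of 0.05 under any of the fits run. Over all genes, edgeR called 0, with 728 at an unadjusted p under 0.05, DESeq2 called 43 and limma voom 9, and edgeR called 0 under every other scaling, filter or left-out tumour that was run. Signs changed as follows, and the cause was not tested. With fibroblast markers as a covariate, the log2 fold change was 0.31 for Postn, 0.021 for Thbs1 and 0.17 for Thbs2. Without aged 50 and young 36 it was -0.18 for Dcn, and the difference in the log2 ratio to collagen was 0.041 for Bgn and 0.25 for Fn1. With 1 tumour left out, the fold change ran from -0.25 to 0.36 for Dcn, from -0.43 to 0.13 for Postn, from -0.28 to 0.078 for Thbs1 and from -0.21 to 0.18 for Thbs2. The difference in log2 ratio then ran from -0.27 to 0.0041 for Thbs1/Thbs2, from -0.29 to 0.080 for Tnc/Fn1 and from -0.21 to 0.33 for Postn/Sparc. Per collagen it ran from -0.53 to 0.024 for Tnc, from -0.18 to 0.090 for Bgn, from -0.71 to 0.043 for Lum and from -0.30 to 0.12 for Fn1. The most abundant member was 64.6-fold above the least by median FPKM and 22.8-fold by median CPM, which takes no account of length. Of 397 recomputed values, 368 were labelled unchanged. For fold changes and ratios this means the same direction and the same side of the threshold, which 0 of them had passed at the start. The label also covers the count of lower members, which ran from 6 to 10 and has no threshold. No paired analysis was possible because the aged and young tumours share no mouse number.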
